A study of Mus musculus with 12 samples.

Results

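The genes described here encode the chains of the collagens, and they were chosen by name: every probe with a single gene symbol made of Col, a type number, the letter a and a chain number. This gave 35 probes of 34 genes, out of 33012 probes on the array and 13840 genes named by a single symbol. By the structures their chains form, 9 were fibrillar collagens, 6 were basement membrane collagens and 19 were other collagens. Col23a1 had 2 probes, and each gene was described by its brightest probe. Col6a3, Col12a1 and Col22a1 were not analysed here.

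Expression was measured on 12 one-colour arrays in 4 groups of 3. The groups were skeletal muscle and hypothalamus of male mice homozygous for B6.CAST-17, a congenic strain with chromosome 17 sequence of CAST on a B6 background, and the same tissues of male wild type B6 mice. The series title calls the strain sub-congenic and concerns physical activity and carbohydrate preference in this strain. The sources used here give neither the ages of the mice nor the limits of the congenic segment, and the congenics are called short only in the titles of the hypothalamus samples. The series text counts the 3 mice of a strain as biological replicates, and the labels do not say whether both tissues of a strain came from the same mice.

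A collagen is built of 3 alpha chains wound into a triple helix, and each chain is the product of its own gene. Fibrillar collagens are secreted as procollagens, trimmed and laid side by side into fibrils, chiefly by fibroblasts and tendon cells. Type IV chains form the sheet-like network of basement membranes, which in muscle surrounds every fibre and in brain lies mostly along blood vessels and beneath the pial surface. The other families form beaded filaments, bind to the surface of fibrils, anchor basement membranes or span the cell membrane.

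Values are log2 intensities, each deposited as such, and a difference of 1 is taken as a 2-fold change. The base of the logarithm was inferred from the range of the values. The arrays of each tissue had been scaled to a common distribution and the tissues separately. Over 5 skeletal muscle genes the median was 19.66 to 20.11 in muscle and 8.62 to 10.75 in hypothalamus. The median over 6 neuronal genes was 14.97 to 16.16 in hypothalamus and 8.14 to 9.08 in muscle, although 2 of the 6, Snap25 (difference 0.04) and Syt1 (0.01), did not differ between the tissues by more than their SE of 0.23 and 0.40. Wild type hypothalamus array 1 stood apart, with rank correlations over probes of 0.42 to 0.461 with the other 5 hypothalamus arrays, which gave 0.775 to 0.853 among themselves. The muscle arrays gave 0.796 to 0.862, and congenic muscle array 3 held the highest muscle value for 32.5% of genes. The main results for the collagen genes are therefore given with and without these arrays, and other values only in part. No detection calls were available. In muscle 9 of the 34 collagen genes, and in hypothalamus 10, had a mean below the median of all probes (9.12 and 8.98), and such low values cannot be told from background.

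**Figure D1:**
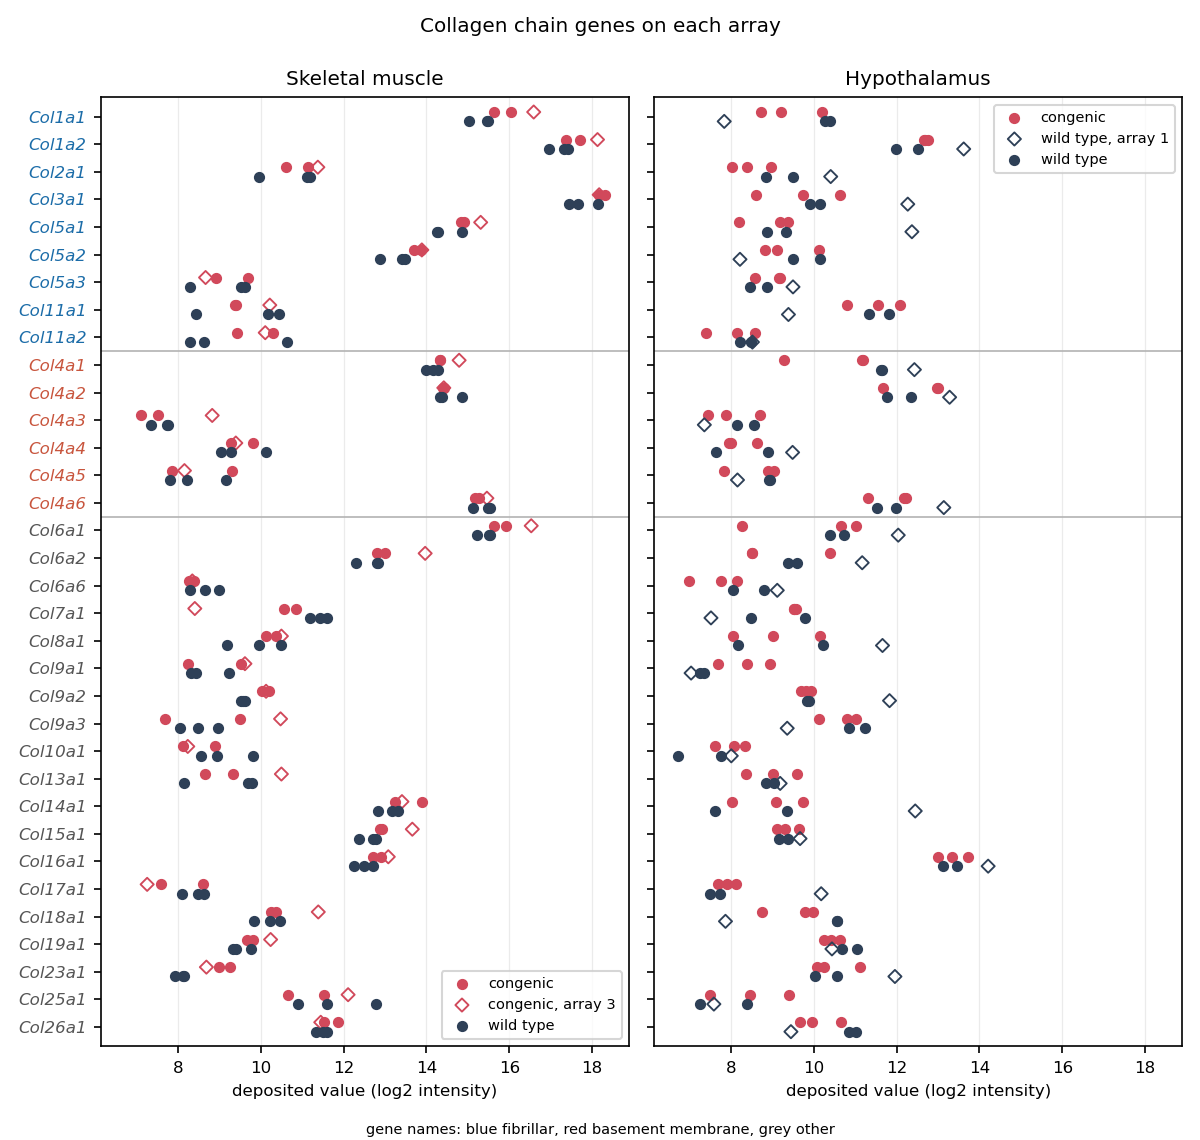
Deposited value (log2 intensity, horizontal axis) of each collagen gene on every array, with skeletal muscle on the left and hypothalamus on the right. Red marks are congenic arrays, dark marks are wild type arrays and open diamonds are congenic muscle array 3 and wild type hypothalamus array 1. In muscle the congenic and wild type points of most genes lie close together, and in hypothalamus the open diamond often lies outside the other 5 points.

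Most of the collagen chains differed between the tissues. Of the 34 genes, 19 were higher in skeletal muscle and 4 were higher in hypothalamus (limma over all probes, Benjamini-Hochberg adjusted p under 0.05). Over all 13840 genes, 35.9% passed this test, 23.3% higher in muscle and 12.6% lower. The collagens called lower in muscle, at 11.8% of the 34, were thus near the share of all genes. The median difference, muscle minus hypothalamus, was 4.21 for the fibrillar collagens, 1.50 for the basement membrane collagens, 0.83 for the other collagens and 0.26 for all genes. The tissues were scaled apart. Scaling all 12 arrays to 1 distribution moved the median of all genes to 0.07 and left 16 collagens higher and 5 lower, with the fibrillar median at 3.96. In whole tissue, fewer cells of a type and less RNA per cell cannot be told apart.

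Among the fibrillar collagens 7 of 9 were higher in muscle, against 23.3% of all genes. Col3a1, which forms the thin fibrils of reticular tissue, read 18.17, 18.31 and 18.17 on the congenic muscle arrays and 18.14, 17.44 and 17.66 on the wild type ones. In hypothalamus it read 10.64, 8.61 and 9.75 in the congenics and 12.27, 10.16 and 9.92 in the wild types. The lowest muscle value lay far above the highest hypothalamus value, and the tissue difference was 7.75 (SE 0.45, 216-fold, adjusted p = 2.96e-08). Col1a1, the alpha 1 chain of the main fibril collagen of tendon and fascia, differed by 6.27 (SE 0.46, 77-fold, adjusted p = 2.62e-07). Its partner chain Col1a2 differed by 4.78 (SE 0.33, 27.5-fold, adjusted p = 1.26e-07). Col5a1, a chain of the minor collagen that starts fibrils and limits their width, differed by 5.18 (SE 0.53, 36.2-fold, adjusted p = 5.89e-06). In each of these genes, as in Col5a2 (difference 4.21), the 6 muscle values lay above the 6 hypothalamus values. Col2a1 and Col11a2, chains best known from cartilage, were also higher in muscle, by 1.88 and 1.34, but their tissue groups overlapped.

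Col11a1, a chain of the minor fibril collagen of cartilage, was the only fibrillar gene called lower in muscle. Its hypothalamus values were 11.55, 10.80 and 12.08 in the congenics and 9.39, 11.33 and 11.81 in the wild types. Its muscle values were 9.39, 9.41 and 10.22 in the congenics and 10.17, 8.44 and 10.45 in the wild types. Wild type hypothalamus array 1, at 9.39, fell inside the muscle range. The difference was -1.48 (SE 0.50, adjusted p = 0.0391) with that array and -1.84 (SE 0.38, adjusted p = 0.00126) without it. Col5a3, the remaining fibrillar chain, differed by 0.16 (SE 0.37) and did not pass.

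The start regions of 3 genes of the first group, and of Col23a1, which was lower in muscle at its brighter probe only, are shown to set the letters before their starts side by side. Of the 34 genes 27 had a start region in the RefSeq table used, and that of Col1a1 was not among them. Each run is the 250 bases before the annotated start on the gene's own strand (GRCm38.p6, RefSeq). Capitals mark the letters TATAAA of a TATA box, CCAAT of a CCAAT box and GGGCGG of a GC box. They were searched on both strands, and no matches overlap one another. The regions are chr6:4505368-4505617 for Col1a2, chr1:45311288-45311537 for Col3a1, chr2:27886175-27886424 for Col5a1 and chr11:51289670-51289919 for Col23a1, all on the plus strand.
Col1a2: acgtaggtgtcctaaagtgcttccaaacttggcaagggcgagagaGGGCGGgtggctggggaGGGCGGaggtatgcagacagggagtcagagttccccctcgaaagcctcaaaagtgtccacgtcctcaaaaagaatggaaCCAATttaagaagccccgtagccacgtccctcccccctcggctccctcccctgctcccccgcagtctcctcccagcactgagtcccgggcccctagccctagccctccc
Col3a1: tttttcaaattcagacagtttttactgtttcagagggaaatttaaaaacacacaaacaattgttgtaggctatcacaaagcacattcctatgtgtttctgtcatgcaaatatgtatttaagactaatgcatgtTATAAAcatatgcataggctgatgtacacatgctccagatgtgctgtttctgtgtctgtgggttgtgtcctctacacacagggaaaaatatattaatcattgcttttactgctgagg
Col5a1: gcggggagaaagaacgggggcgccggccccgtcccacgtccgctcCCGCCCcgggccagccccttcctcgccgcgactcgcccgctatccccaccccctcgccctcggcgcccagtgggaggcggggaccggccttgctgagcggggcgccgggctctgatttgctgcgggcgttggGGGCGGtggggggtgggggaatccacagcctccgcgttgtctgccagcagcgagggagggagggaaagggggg
Col23a1: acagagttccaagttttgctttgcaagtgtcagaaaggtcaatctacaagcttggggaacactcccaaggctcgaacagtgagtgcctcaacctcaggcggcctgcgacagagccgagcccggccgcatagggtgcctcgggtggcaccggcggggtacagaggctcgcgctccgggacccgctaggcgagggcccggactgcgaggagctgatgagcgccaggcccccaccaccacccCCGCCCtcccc
The run of Col1a2 holds CCAAT beginning 109 bases before the start and GGGCGG at 205 and 188 bases before it. That of Col3a1 holds TATAAA alone, 117 bases before the start. Col5a1 holds GGGCGG at 205 and 73 bases and Col23a1 at 11 bases before the start, so Col23a1 shares this motif with 2 of the 3 genes higher in muscle. Among the start regions of the fibrillar genes, 2 of 6 held TATAAA, 3 held CCAAT and 5 held GGGCGG. Among those of the basement membrane genes, 0 of 5 held TATAAA, 3 held CCAAT and 3 held GGGCGG. Among those of the other collagens, 3 of 19 held TATAAA, 6 held CCAAT and 10 held GGGCGG. Each counted region was the 250 bases before the start. Of all 32851 start regions of that same length, 12.4% held TATAAA, 33.8% held CCAAT and 32.7% held GGGCGG. These matches are letters in a window and say nothing of which factors bind there.

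Of the basement membrane collagens 3 of 6 were higher in muscle, against 23.3% of all genes. Col4a1, whose chain joins that of Col4a2 in the network found in nearly every basement membrane, read 14.33, 14.34 and 14.79 in congenic muscle and 14.27, 13.98 and 14.17 in wild type muscle. In hypothalamus it read 11.17, 9.29 and 11.20 in the congenics and 12.43, 11.64 and 11.62 in the wild types. All muscle values were above all hypothalamus values, with a difference of 3.09 (SE 0.37, 8.5-fold, adjusted p = 2.89e-05). Col4a2, whose start lies 21 bases from that of Col4a1 on the opposite strand of chromosome 8, differed by 1.96 (SE 0.35, adjusted p = 0.000823). In another pair of chains with neighbouring starts, 1 gene passed. Col4a6 differed by 3.28 (SE 0.34, 9.7-fold, adjusted p = 6.47e-06), while Col4a5, whose start lies 1343 bases away on the opposite strand of the X chromosome, differed by -0.22 (SE 0.38) and did not pass. The difference between Col4a5 and Col4a6 was not itself tested. Col4a3 and Col4a4, chains best known from the filtration barrier of the kidney, differed by -0.30 and 1.05 and did not pass. Col4a4 passed without wild type hypothalamus array 1 (1.26, adjusted p = 0.0104).

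Among the other collagens 9 of 19 were higher in muscle and 3 were lower, against 23.3% and 12.6% of all genes. The beaded filament chains Col6a1 and Col6a2, partners in the type VI collagen that surrounds muscle fibres, differed by 5.21 (SE 0.47, 37.1-fold) and 3.35 (SE 0.45, 10.2-fold). Col14a1, which binds to fibril surfaces, differed by 3.94 (SE 0.65). Col15a1, a collagen of the outer face of basement membranes, differed by 3.52 (SE 0.29). Col25a1, a membrane-spanning collagen with a part in the innervation of muscle, differed by 3.50 (SE 0.46), but its hypothalamus mean of 8.10 lay below the median of all probes there, so the size of this difference is not settled. The same held for Col9a1, Col10a1 and Col11a2, or 4 of the 19 genes called higher. The adjusted p of Col6a1, Col6a2, Col14a1, Col15a1 and Col25a1 ranged from 8.94e-07 for Col15a1 to 0.000409 for Col14a1, and in each of them the tissues did not overlap.

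The genes of this class called lower in muscle were Col23a1, Col9a3 and Col19a1, and the muscle means of Col23a1 and Col9a3 lay below the median of all probes. The brighter probe of Col23a1, another membrane-spanning collagen, read 8.99, 9.25 and 8.69 in congenic muscle and 8.12, 7.92 and 8.15 in wild type muscle. In hypothalamus it read 11.12, 10.08 and 10.25 in the congenics and 11.96, 10.04 and 10.55 in the wild types. The tissues did not overlap, and the difference was -2.15 (SE 0.38, 4.43-fold, adjusted p = 0.000752). The second probe of Col23a1 went the other way, at 0.30 (SE 0.33, adjusted p = 0.558), so the direction for this gene rests on the probe. Col9a3, a chain of the collagen that coats cartilage fibrils, differed by -1.71 (SE 0.50, adjusted p = 0.0195), and Col19a1, a collagen made by some neurons and by developing muscle, by -0.87 (SE 0.29, adjusted p = 0.0397). Counted over all 34 genes, 14 were higher in muscle with no overlap between the tissues, against 18% of all genes, and 2 were lower with no overlap, against 7.81%.

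**Figure D2:**
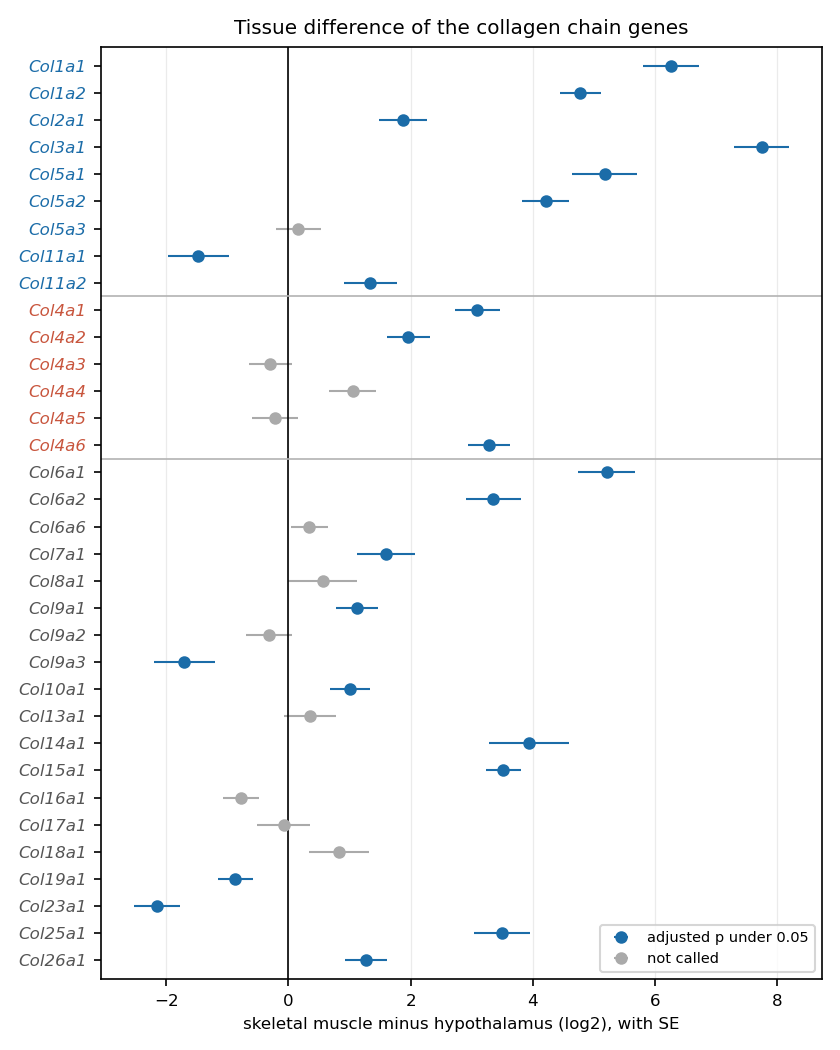
Difference between skeletal muscle and hypothalamus (log2, horizontal axis, muscle minus hypothalamus) of each collagen gene over all 12 arrays, with its standard error. Blue points passed the test and grey points did not. The fibrillar chains Col3a1, Col1a1, Col5a1, Col1a2 and Col5a2 lie between 4.21 and 7.75, and of the genes called lower in muscle, Col23a1 lies lowest at -2.15, drawn at its brighter probe (its second probe gave 0.30).

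The number of collagens called was 17 to 25 when single arrays were left out, and it was 24 (19 higher, 5 lower) without both doubtful arrays, when 29.8% of all genes were higher and 19.3% lower. Without wild type hypothalamus array 1 alone, 20 collagens were higher and 5 were lower, against 30.4% and 19.1% of all genes. The weakest calls moved in and out: Col11a1, Col11a2, Col7a1, Col9a1, Col9a3, Col10a1 and Col19a1 each lost the call in at least 1 of the single-array fits, and Col4a4 and Col16a1 gained it.

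Genes that build, bind and break down collagen were read beside the chains, against the 23.3% of all genes called higher in muscle and the 12.6% called lower. Of 25 measured genes of collagen maturation, 11 were higher in muscle and 1 was lower, with a median difference of 0.88. Those with the smallest p were Pcolce, which helps trim the procollagen tail (3.77), Loxl1, a crosslinking enzyme (3.50), and P3h2, a prolyl hydroxylase (2.91). Of 15 partners of fibrils 13 were higher and 1 was lower (median 3.16), led by Thbs4 (7.36), a matrix protein of tendon and muscle, and the small proteoglycans Kera (6.08) and Dcn (5.58). The exception was Sparc, a collagen-binding protein that brain also makes, at -2.93 (adjusted p = 2.14e-06).

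Of 10 basement membrane partners 5 were higher and 2 were lower (median 1.69). Nid1 and Nid2, which link laminin to type IV collagen, differed by 4.50 and 4.26, and Lamb2, a laminin chain, by 2.96. Of 5 receptors 2 were higher and 2 were lower, namely Ddr2 (1.62) and Itgb1 (0.98) against Itga11 (-1.40) and Lair1 (-1.30). Of 10 turnover genes 5 were higher and none was lower (median 0.99), led by Fap (4.05), Ctsk (2.66) and Mmp2 (4.79), all enzymes that cut matrix proteins or their fragments.

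Several markers of cells that make collagen were higher in muscle, read against 23.3% of all genes. Of 7 measured fibroblast markers 5 were higher, with a median difference of 3.23 over the list, and their summed level (log2 of the summed intensities) was 19.92 to 20.31 in muscle and 15.11 to 15.68 in hypothalamus. Of 5 tendon markers 4 were higher, of 5 pericyte and smooth muscle markers 3, and of 6 endothelial markers 3. Of 5 cartilage markers 0 were higher and 1 was lower (Sox9, -2.37), with a median of 0.13. Of 6 leptomeningeal markers, of the membranes around the brain, 2 were higher and 1 was lower, with a median of -0.35. The summed level of the tendon markers was 16.97 to 18.10 in muscle and 12.08 to 13.78 in hypothalamus. In muscle the fibroblast sum is mostly that of Gsn (19.65 to 19.98) and the tendon sum that of Thbs4 (16.69 to 17.86). The fibroblast markers Pdgfra (-0.28) and Thy1 (-0.87) were below 0, and the tendon marker Scx differed by 0.58. None of these 3 passed. The part of all these markers in the collagen differences between the tissues was not tested.

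No collagen gene passed the test of the strain difference in skeletal muscle. By limma 4 of the 13840 genes passed it, or 0.0289%. Most collagens were nonetheless nominally higher in the congenics. The difference, congenic minus wild type, was above 0 for 25 of 34 collagens, against 53.4% of all genes, and its median was 0.40 for the collagens and 0.03 for all genes. By class, the median was 0.50 for the fibrillar, 0.03 for the basement membrane and 0.40 for the other collagens. At an unadjusted limma p under 0.05, 7 collagens were higher in the congenics, against 3.24% of all genes, and 1 was lower, against 1.8%. The congenic values lay wholly above the wild type ones for 8 collagens, against 7.34% of all genes, and wholly below for Col7a1, against 5.05%.

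Col1a1 read 15.64, 16.05 and 16.59 on the congenic arrays and 15.49, 15.04 and 15.47 on the wild type arrays. The groups did not overlap, but the closest values lay 15.64 against 15.49, and array 3 was the highest of the congenics. The means were 16.09 ± 0.48 (SD, n = 3) and 15.33 ± 0.25 (SD, n = 3). The difference of 0.76 (SE 0.25, 1.69-fold, adjusted p = 0.835) fell to 0.51 (SE 0.18, adjusted p = 0.911) without congenic array 3. Col1a2 read 17.36, 17.71 and 18.13 against 17.41, 16.97 and 17.33 in the wild types. These groups overlapped, and the difference was 0.50 (SE 0.21), or 0.30 (SE 0.16) without that array.

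Col3a1, whose muscle values are given above, differed by 0.47 (SE 0.19) between the strains with no overlap, and by 0.49 without congenic array 3. Col5a1 read 14.84, 14.90 and 15.31 in the congenics and 14.85, 14.25 and 14.28 in the wild types, a difference of 0.56 (SE 0.22) with an overlap at a single wild type array. Col5a2, its partner chain, read 13.69, 13.87 and 13.89 against 13.49, 12.87 and 13.41. Its groups did not overlap, with differences of 0.56 (SE 0.22) and, without array 3, 0.52 (SE 0.20). For each of Col1a1, Col1a2, Col3a1, Col5a1 and Col5a2, wild type array 2 was the lowest of the 6.

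Of the basement membrane collagens, Col4a1 was higher on every congenic array, by 0.35 (SE 0.19), or 0.20 without array 3. Col4a2 read 14.41, 14.42 and 14.42 in the congenics and 14.87, 14.37 and 14.32 in the wild types, a difference of -0.10 (SE 0.19). The congenic values of Col4a2 were nearly equal and lay inside the wild type range.

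The beaded filament chain Col6a1 read 15.64, 15.93 and 16.53 in the congenics and 15.53, 15.23 and 15.52 in the wild types. The groups did not overlap, and the difference was 0.61 (SE 0.23), or 0.36 (SE 0.14) without congenic array 3. Col6a2 read 12.80, 12.99 and 13.97 against 12.80, 12.29 and 12.82. Its groups overlapped, and its difference of 0.62 (SE 0.32) was 0.26 without array 3. Col6a6, a chain that can take the place of another in type VI collagen, went the other way at -0.32 (SE 0.39).

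Col15a1 read 12.89, 12.93 and 13.66 in the congenics and 12.78, 12.38 and 12.72 in the wild types, a difference of 0.53 (SE 0.26) with no overlap, or 0.28 without array 3. Col18a1, the precursor of endostatin, read 10.37, 10.24 and 11.39 against 10.22, 9.83 and 10.46, a difference of 0.49 (SE 0.40) that was 0.13 without array 3. Array 3 was thus the highest of the 6 for both multiplexins. Col14a1 read 13.89, 13.25 and 13.41 against 13.32, 12.84 and 13.18 and differed by 0.40 (SE 0.23), with overlap. Col25a1 read 11.54, 10.65 and 12.11 against 10.91, 12.79 and 11.60 and differed by -0.34 (SE 0.50), with wild type array 2 the highest.

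Col7a1, the chain of the anchoring fibrils of skin, was the collagen furthest below the wild type. It read 10.56, 10.85 and 8.41 in the congenics and 11.19, 11.60 and 11.44 in the wild types. The groups did not overlap, and congenic array 3 lay lowest by a wide margin. The difference of -1.47 (SE 0.57, adjusted p = 0.835) was -0.71 (SE 0.26, adjusted p = 0.911) without that array. Col23a1, whose muscle values are given above, was higher on every congenic array by 0.91 (SE 0.39) at its brighter probe. At its second probe the direction turned, with a difference of -0.10 (SE 0.42) and readings of 8.38, 8.48 and 9.09 in the congenics and 8.79, 8.96 and 8.48 in the wild types.

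Col11a2 is the only one of the 34 genes on chromosome 17, the chromosome of the congenic segment, and encodes a chain of a minor fibrillar collagen. It read 10.29, 9.44 and 10.11 in congenic muscle and 8.29, 10.64 and 8.64 in wild type muscle. Wild type array 2 held both the highest value of its group and of all 6 arrays, so the groups overlapped. The difference was 0.75 (SE 0.62, adjusted p = 0.847), and 1.48 without wild type array 2. In hypothalamus it read 8.58, 7.41 and 8.14 against 8.52, 8.49 and 8.23, a difference of -0.37 (SE 0.47, adjusted p = 0.936).

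**Figure D3:**
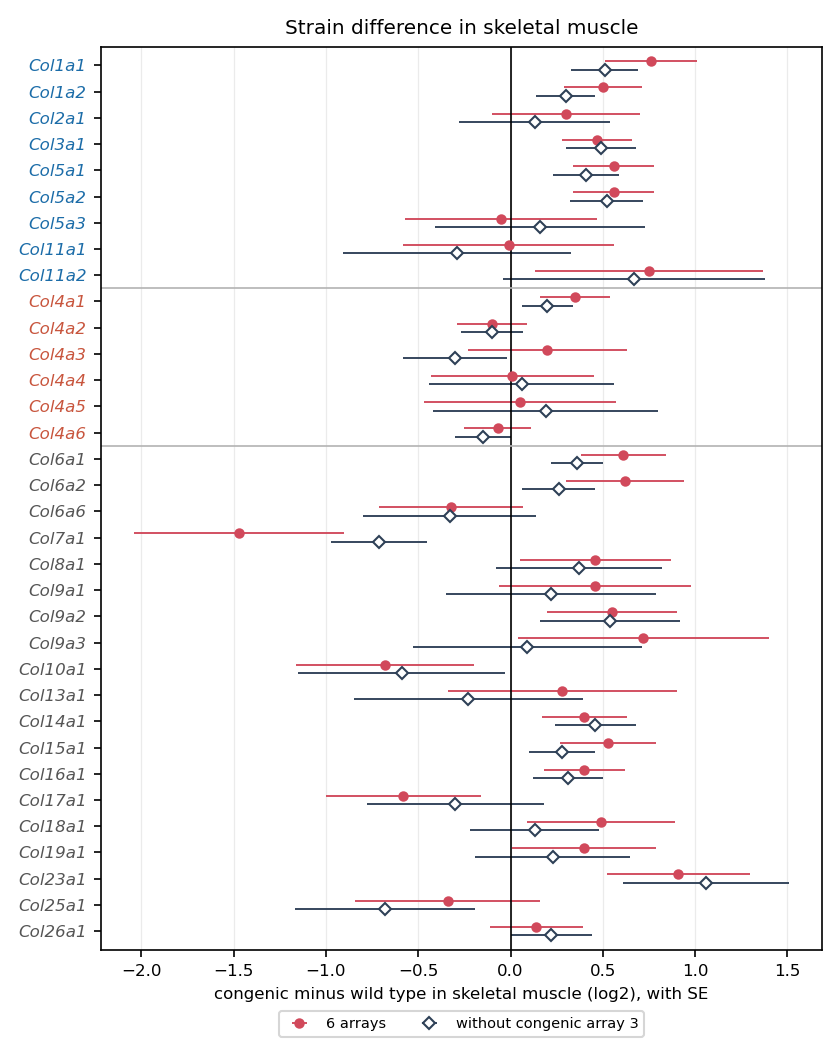
Strain difference in skeletal muscle (log2, horizontal axis, congenic minus wild type) of each collagen gene with its standard error, over 6 arrays (red) and without congenic array 3 (open diamonds). Most points lie between 0 and 1, none passed the test, and Col7a1 moves from -1.47 to -0.71 when the array is left out.

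Single arrays moved these counts. Congenic array 3 held the highest muscle value for 17 of 34 collagens, against 32.5% of all genes, and wild type array 2 held the lowest for 18 of 34, against 17.3% of all genes. Without congenic array 3 the median of the collagens was 0.21 and that of all genes -0.01, the fibrillar median was 0.41, the basement membrane median -0.02 and the other median 0.22, and 24 of 34 differences were above 0, against 48.5% of all genes. At an unadjusted limma p under 0.05, 5 collagens were then higher and 1 was lower, against 3.24% and 2.36% of all genes, and 0 passed after adjustment, against 0.0289%. Without wild type array 2 the median was 0.27, and 1 collagen was higher at that p, against 1.6% of all genes, and 0 were lower. Leaving out congenic array 2 gave 3 higher (3.28% of all genes) and 1 lower, and wild type array 3 gave 3 higher (2.31%) and 0 lower. Leaving out wild type array 1 gave 6 higher (3.14%) and 1 lower, and congenic array 1 gave 8 higher (4.1%) and 2 lower (3.59%). The count also moved with the model: without a variance trend 1 collagen was higher (2.85% of all genes) and 1 lower, with a floor 5 were higher (3.35%) and 0 lower, and in the joint fit of 12 arrays 0 were higher (0.896%) and 0 lower (0.621%).

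No gene of the pathway lists passed the strain test in muscle. The median difference was 0.21 over 25 maturation genes, 0.27 over 15 fibril partners, 0.17 over 10 basement membrane partners, 0.19 over 10 turnover genes and -0.08 over 5 receptors, beside 0.03 over all genes. Without congenic array 3 these medians were 0.10, 0.20, 0.15, 0.19 and 0.07, beside -0.01 over all genes. The genes of smallest p were Pcolce2 (0.69), Pcolce (0.79) and Loxl3 (1.50) for maturation, and Thbs2 (1.01), Fn1 (0.51) and Bgn (0.55) for fibril partners. For turnover they were Timp2 (0.43), Mmp2 (0.48) and Mmp9 (1.22), an inhibitor of matrix proteases and the gelatinases. For basement membrane partners they were Lamb2 (0.37), Lama2 (0.62) and Agrn (-0.53), and for receptors Itga2 (-0.43), Ddr2 (0.17) and Itga11 (-0.20). Differences were below 0 for 8 of 25 maturation genes, 2 of 15 fibril partners and 2 of 10 basement membrane partners. The same held for 1 of 10 turnover genes and 3 of 5 receptors.

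Markers of several cell types had differences above 0 in muscle, as 53.4% of all genes did, and none passed the test. The differences of 6 of 7 fibroblast markers were above 0 (median 0.37), and their summed level was 20.23 to 20.31 on the congenic arrays and 19.92 to 20.04 on the wild type arrays. All 4 macrophage markers measured were above 0 (median 0.87), with a summed level of 17.20 to 17.35 against 16.08 to 16.68. Neither summed level overlapped between the strains. The fibroblast sum is mostly that of 1 bright gene, Gsn, at 19.89 to 19.98 against 19.65 to 19.72. The median level over the 7 fibroblast markers was 13.88 to 14.26 in the congenics and 13.53 to 13.71 in the wild types. Without congenic array 3 the medians were 0.31 and 0.88. The summed tendon level, at 17.05 to 18.10 against 16.97 to 17.70, overlapped and was highest on congenic array 3. Its median was 0.26 with that array and -0.04 without it. Differences were also above 0 for 3 of 3 blood markers (median 0.64) and 5 of 5 pericyte and smooth muscle markers (median 0.14). Without congenic array 3 these were 3 of 3 (median 0.45) and 1 of 5 (median -0.08). Of the 6 endothelial markers 3 were above 0 (median -0.15), and Cdh5, the cadherin of endothelial junctions, differed by -1.52 (SE 0.43, adjusted p = 0.835). Other lists lay mostly below 0: 4 of 6 neuronal (median -0.22), 4 of 6 leptomeningeal (-0.20), 3 of 5 cartilage (-0.06) and 3 of 5 skeletal muscle markers (-0.06). Without congenic array 3 the medians of these 4 lists were -0.19, 0.09, 0.13 and 0. The part of these markers in the collagen differences was not tested.

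In hypothalamus no collagen passed the strain test either, and by limma 0 of all 13840 genes did, with 93 higher and 141 lower at an unadjusted p under 0.05. The difference was above 0 for 9 of the 34 collagens, against 48.8% of all genes, with a median of -0.27 beside -0.02 for all genes. The class medians were -0.13 for the fibrillar, -0.20 for the basement membrane and -0.29 for the other collagens. At an unadjusted limma p under 0.05, Col9a1 was higher, against 0.672% of all genes, and 0 collagens were lower, against 1.02%. Only Col9a1 lay wholly above the wild type, against 3.01% of all genes, and only Col4a1 wholly below, against 5.67%.

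Col9a1, a chain of the collagen that coats cartilage fibrils, read 8.94, 7.69 and 8.39 in the congenics and 7.04, 7.36 and 7.26 in the wild types. The difference was 1.12 (SE 0.40, 2.18-fold, adjusted p = 0.936), and 1.03 without wild type array 1. These are low readings, with 7.06% of all probes below the mean of this gene in hypothalamus. Col4a1 was lower in the congenics by 1.34 on the log2 scale (SE 0.74, adjusted p = 0.936). Congenic array 2, at 9.29, lay well below the other 5, and the difference was -1.07 (SE 0.58) without wild type array 1 and -0.71 without that congenic array. Its partner Col4a2 read 13.00, 12.98 and 11.68 against 13.28, 12.36 and 11.78, with a difference of 0.08 (SE 0.70) and overlapping groups.

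Of the remaining genes with the smallest p, Col6a6 read 6.98, 8.16 and 7.77 in the congenics and 9.12, 8.06 and 8.81 in the wild types, a difference of -1.02 (SE 0.50) with overlap. Col2a1, the main collagen of cartilage, read 8.03, 8.39 and 8.97 against 10.41, 9.51 and 8.85 and differed by -1.13 (SE 0.63), and by -0.72 without wild type array 1. Col7a1 read 9.58, 9.52 and 9.53 against 7.52, 8.48 and 9.78 and differed by 0.95 (SE 0.69), or 0.41 without that array. In each of these genes wild type array 1 held the end value of the wild type group that widened the difference.

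That array moved many of the strain differences. It was the highest of the 6 hypothalamus arrays for 19 of 34 collagens, against 35.5% of all genes, and the lowest for 9, against 34.6%. Col3a1 read 12.27 on it and 8.61 to 10.64 on the other 5 arrays, and its strain difference was -1.12 (SE 0.86) with the array and -0.37 (SE 0.61) without it. Col5a1 read 12.37 there against 9.34 and 8.87 in the other wild types and 9.38, 9.19 and 8.20 in the congenics, and its difference was -1.27 (SE 0.97) with the array and -0.19 (SE 0.56) without it. Col14a1 read 12.45 there against 9.35 and 7.61 in the other wild types and 9.09, 9.74 and 8.02 in the congenics, and its difference changed sign, from -0.86 (SE 1.17) to 0.47 (SE 0.73).

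Other chains were low on the same array. Col1a1 read 10.19, 9.22 and 8.72 in the congenics and 7.84, 10.28 and 10.39 in the wild types. Its difference was -0.13 (SE 0.85) over the 6 arrays and -0.96 (SE 0.53, adjusted p = 0.900) without array 1, when its groups no longer overlapped. Col18a1 read 9.80, 8.75 and 9.99 against 7.87, 10.56 and 10.55, with differences of -0.15 (SE 0.87) and, without array 1, -1.04 (SE 0.49). Col5a2 read 10.12, 8.83 and 9.11 against 8.22, 9.51 and 10.15, with 0.05 (SE 0.72) and -0.48. Chains of 1 protein thus departed in opposite directions on this array, with Col1a2 above and Col1a1 below the other 5 arrays.

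Col1a2 read 12.65, 12.76 and 12.69 in the congenics and 13.62, 12.52 and 11.98 in the wild types. Its difference was 0.00 (SE 0.65) with array 1 and 0.45 (SE 0.29) without it. Col6a1 read 11.01, 8.28 and 10.65 against 12.04, 10.40 and 10.72, with -1.07 (SE 0.89) and, without array 1, -0.58. Col6a2 read 10.40, 8.50 and 8.52 against 11.17, 9.39 and 9.60, with -0.91 (SE 0.81) and -0.35. For both type VI chains congenic array 2 was the lowest and wild type array 1 the highest of the 6. Col15a1 read 9.12, 9.30 and 9.64 against 9.67, 9.38 and 9.15 and differed by -0.05 (SE 0.56). Col25a1 read 9.41, 8.46 and 7.50 against 7.59, 8.38 and 7.26 and differed by 0.71 (SE 0.58), with overlap.

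Without wild type hypothalamus array 1, by limma 0 collagens passed and 0 had an unadjusted p under 0.05, against 1.88% of all genes higher and 4.7% lower at that p. The collagen median was then -0.11 beside -0.07 for all genes, and 14 of 34 differences were above 0, against 44.5% of all genes. Col1a2 and Col9a1 lay wholly above the wild type, 2 of 34 beside 7.98% of all genes, and Col1a1, Col4a1, Col18a1, Col19a1 and Col26a1 wholly below, 5 of 34 beside 16.4%. The fibrillar, basement membrane and other medians were -0.31, -0.21 and 0.04. Leaving out congenic hypothalamus array 1 instead gave -0.54, -0.31 and -0.34. That congenic array also had the highest summed level of 5 anterior pituitary markers, 18.03 against 13.26 to 15.17 on the other hypothalamus arrays. This sum is mostly that of Gh, at 17.46 against 7.57 to 8.86. The part of these markers in the collagen values was not tested.

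**Figure D4:**
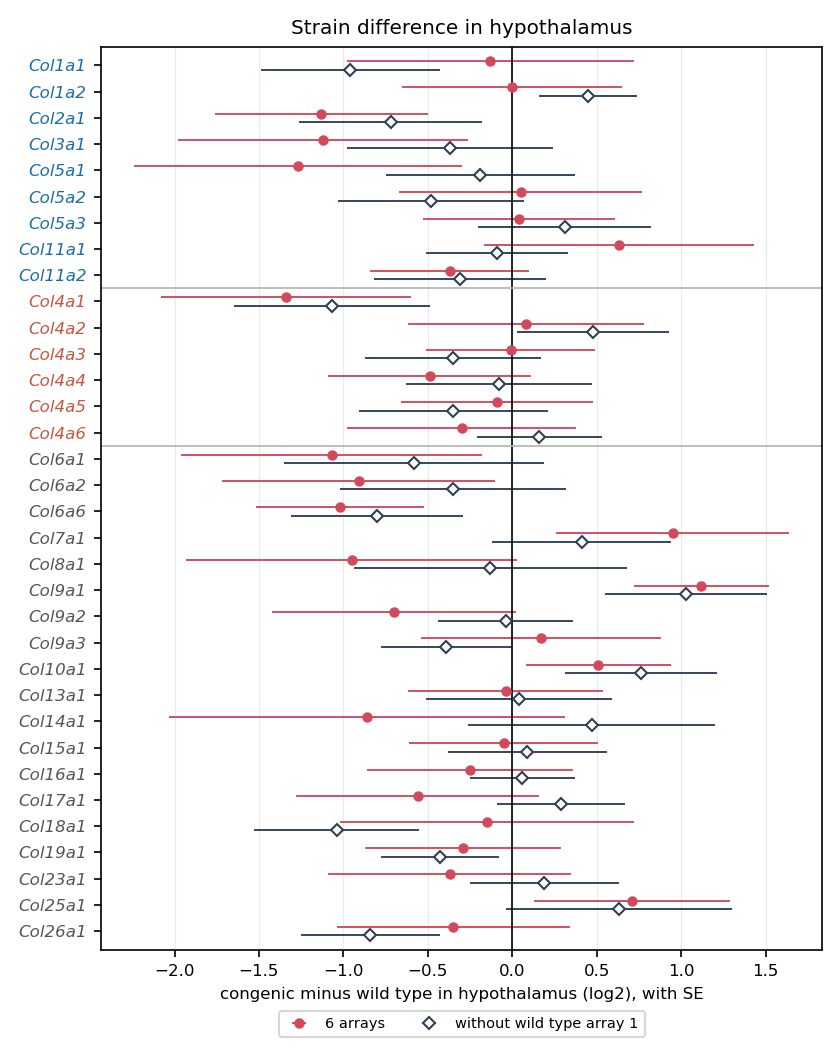
Strain difference in hypothalamus (log2, horizontal axis, congenic minus wild type) of each collagen gene with its standard error, over 6 arrays (red) and without wild type array 1 (open diamonds). The bars are wide and none passed the test. Without the array Col5a1 moves from -1.27 to -0.19 and Col1a1 from -0.13 to -0.96.

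No gene of the pathway lists passed in hypothalamus. The medians were -0.22 over the maturation genes, -0.07 over the fibril partners, -0.38 over the basement membrane partners, -0.14 over the receptors and 0.09 over the turnover genes, beside -0.02 over all genes. Without wild type array 1 they were -0.24, -0.15, -0.19, -0.03 and -0.10, beside -0.07 over all genes. Over all 6 arrays the pathway genes of smallest p were Thbs4 (-2.54), Loxl3 (-1.30) and Tnxb (-1.79), each with a limma adjusted p of 0.936. The fibroblast marker median was 0.20, or 0 without wild type array 1. The summed fibroblast level was 15.11 to 15.65 on the congenic arrays and 15.33 to 15.68 on the wild type arrays, with wild type array 1 the highest. The macrophage markers did not move together on that array. C1qa read 16.77 there and 13.70 to 14.88 on the other 5, while C1qb read 9.28 there and 12.36 to 13.46 on the others, and the median over the 4 markers was lowest there, at 11.61. The median over the 6 leptomeningeal markers, which mark the membranes around the brain, was 9.13 to 9.76 in the congenics and 9.40 to 9.81 in the wild types. The part of these markers in the values of wild type array 1 was not tested.

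The difference between the tissues in the strain difference was tested for every gene over the 12 arrays. By limma 0 of the 34 collagens and 0 of all 13840 genes passed (0%). At an unadjusted p under 0.05, 1 collagen was higher and 1 was lower, against 1.96% and 1.23% of all genes. Col7a1 had a difference of -1.47 in muscle and 0.95 in hypothalamus, an interaction of -2.42 (SE 0.97, adjusted p = 0.913). Col4a1 had 0.35 and -1.34, an interaction of 1.69 (SE 0.75, adjusted p = 0.913). Without wild type hypothalamus array 1 the interaction of Col1a1 was 1.72 (SE 0.53, adjusted p = 0.666), that of Col4a1 1.42 and that of Col7a1 -1.89. Over all 12 arrays no fibrillar collagen, Col1a1 included, had an unadjusted limma p under 0.05. When congenic muscle array 3 was left out, no collagen of any class had such a p. With both doubtful arrays left out 2 collagens were higher at that p, against 4.12% of all genes, and 0 were lower, against 1.99%. Over all 12 arrays the interaction was above 0 for 26 of 34 collagens, against 50.8% of all genes, with a median of 0.57 beside 0.02 for all genes. Without both doubtful arrays it was above 0 for 22 of 34, against 54.5%, with a median of 0.47 beside 0.07.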

How the data were processed

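Per the labels, total RNA of skeletal muscle and hypothalamus was labelled with digoxigenin as cRNA and read by chemiluminescence on 12 one-colour Applied Biosystems arrays. The deposited values were read as log2 intensity, with the base inferred from their range of 5.35 to 21.1. The values of all 6 arrays within a tissue followed the same distribution, as after quantile normalization by the authors. For software and background correction, the sources used here give nothing. The number of arrays limits the precision.

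Titles gave the groups, since the sample descriptions name the congenic strain throughout. Probes were named from the platform annotation: 14411 had 1 gene symbol, 247 had several and 18354 had none. The probe with the highest mean over 12 arrays stood for a gene. All 34 collagen genes matched the RefSeq gene table of GRCm38.p6.

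With no floor or filter, limma 3.58.1 (R 4.3.3, eBayes with a trend) was run on all 33012 probes, p-values were adjusted by Benjamini-Hochberg and the threshold was 0.05. Strain differences were fitted per tissue on 6 arrays, and the tissue difference and the interaction on 12. The fits were tested on simulated data. Alternatives were no trend, quantile normalization over 12 arrays, a floor at the 20th percentile, bright probes only, any probe of a gene, a replicate block, a joint fit of 12 arrays and leaving out arrays.

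Values on every array are given for a core of well-known collagens, for Col11a2 and for the 5 smallest p per tissue, and for the tissue difference up to 4 genes per class and direction. Pathway lists are named by their 3 smallest p for the tissue difference, with the receptors named by all that passed. In muscle the 3 smallest p of the strain difference are named for every pathway list. In hypothalamus the 3 smallest p over all pathway lists are named. The members, lists and markers were chosen with earlier results of these data known. Replicate numbers were not used to pair the arrays, except in the fit with a replicate block.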

Additional observations from a re-analysis of the deposited data

Results flagged for a closer look

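The strain differences of Col4a1 had opposite signs in the tissues. Its congenic values were all above the wild type values in skeletal muscle (difference 0.35) and all below them in hypothalamus (difference -1.34). The closest muscle values were 14.33 and 14.27. The muscle difference was 0.20 without congenic array 3, and the hypothalamus difference was -0.71 without congenic array 2. Of all genes, 7.34% lay wholly above the wild type in muscle and 5.67% wholly below it in hypothalamus. The difference between the tissues, 1.69 on the log2 scale, was tested as an interaction over 12 arrays and did not pass (limma adjusted p = 0.913). Its partner chain Col4a2 had differences of -0.10 and 0.08, with overlapping groups in both tissues.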

How the results depend on the processing

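The counts of collagens called for the strain difference in muscle, the strain difference in hypothalamus and the interaction were 0 under each alternative run, and the count for the tissue difference was 17 to 25, beside 23. The lowest count came without wild type muscle array 2 (17) and the highest without wild type hypothalamus array 1 (25). The deviations of same-numbered arrays of the strains had correlations of 0.0695, 0.0147 and 0.0634 in muscle and 0.0343, -0.129 and 0.138 in hypothalamus. The highest with another number were 0.017, 0.00781 and -0.027 in muscle and -0.0272, 0.144 and 0.143 in hypothalamus. Between the tissues, same-numbered arrays gave 0.0214 to 0.0355 in the congenics and 0.02 to 0.0756 in the wild types. With 3 arrays a group, such small correlations do not settle whether the numbers pair the samples. The fit with a replicate block called 20 collagens for the tissue difference, losing Col9a1 (adjusted p = 0.0595), Col10a1 (0.0547) and Col19a1 (0.103), and called 0 for the strain difference in muscle, 0 in hypothalamus and 0 for the interaction. At the second probe of Col23a1, an alternative chosen after seeing the data, the strain difference in muscle turned to -0.10. No other named strain difference changed sign except when single arrays were left out. In muscle, these fits gave -0.76 to 0.17 for Col25a1 and -0.20 to 0.07 for Col4a2. In hypothalamus they gave -0.96 to 0.31 for Col1a1, -0.37 to 0.45 for Col1a2, -0.48 to 0.48 for Col5a2, -0.26 to 0.52 for Col4a2, -1.95 to 0.47 for Col14a1, -0.19 to 0.09 for Col15a1 and -1.04 to 0.30 for Col18a1. The cause was not tested. With 3 arrays a group and no detection calls, small differences and the signal over background of dim chains could not be resolved.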
